A study of Rattus norvegicus with 129 samples.

Results

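The rat livers compared here came from animals fed a diet with 3H-1,2-dithiole-3-thione (D3T) and from animals fed the same diet without it. They gave 8 of the 129 arrays of a survey of rat liver responses to chemicals, 4 per diet, and were chosen by the diet named in each sample title. By the labels, the rats were female Sprague Dawley animals of 4 weeks. The D3T rats were given a Harlan Teklad rodent 4% mash holding 600 mg D3T per kg of diet, and the control rats were given that mash alone. The description label of the control samples also names D3T, so the split into diets rests on the sample titles. No allele, strain or second agent separated the diets, and the length of feeding is not given in the sources used here. Each array held the RNA of 1 frozen liver, hybridised to an Affymetrix rat array of 8799 probe sets. The comparison set beside it below used 15 arrays of rats labelled female from the same series, with the same strain name. They were treated for 5 days with phenobarbital (PB) at 100 mg/kg, pregnenolone-16α-carbonitrile (PCN) at 100 mg/kg, or vehicle (methylcellulose), with 5 rats in each group. As an alternative the 15 arrays of the matching male groups were used.

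D3T is a sulfur heterocycle used as a cancer chemopreventive agent in rodents, and it is known for activating the transcription factor NRF2. In resting cells the adaptor KEAP1 holds NRF2 in the cytosol and directs its degradation. Electrophiles modify cysteines of KEAP1, after which NRF2 enters the nucleus and, with a small MAF protein, binds antioxidant response elements near genes for glutathione transferases, quinone reductase, glutathione synthesis and NADPH supply. In liver these enzymes conjugate, reduce or hydrolyse reactive chemicals, of which aflatoxin is the classical rat example. PB acts mainly through the nuclear receptor CAR and PCN through PXR, which induce cytochrome P450 enzymes.

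The 4 D3T arrays were dimmer than the 4 control arrays. The mean deposited intensity was 93.3 to 117 on the D3T arrays, against 276 to 417 on the control arrays, and the median was 9.88 to 14.6 on the D3T arrays, against 37.3 to 69.8 on the control arrays. The 9 spike-in probe sets summed to 5774 to 6927 on the D3T arrays, against 4842 to 7466 on the control arrays, so the spike-ins overlapped between the diets while the mean intensities did not. The actin 3′ to 5′ ratio, a sign of RNA integrity, was 1.31, 1.29, 1.68 and 1.20 on the D3T arrays, against 1.68, 2.25, 1.66 and 1.99 on the control arrays. The Gapdh ratio was 1.38 to 1.59 on the D3T arrays, against 1.29 to 1.47 on the control arrays. Brightness, the actin ratio and diet cannot be told apart in these 8 arrays, and the part of RNA integrity in the results was not tested. Values are therefore given as normalised intensities, in arbitrary units, after the 8 arrays were brought to 1 common distribution (quantile normalisation). Differences are on the scale of log2(normalised intensity + 16), D3T minus control, with the standard error (SE) of the limma fit and an adjusted p over 8740 probe sets. A count is also given for genes that passed under each of 5 ways of scaling the arrays. An intensity below 0 was set to 0, and a gene listed at 0 in every rat of a diet is given no fold or log2 difference. In whole liver, fewer cells of a type and less RNA per cell cannot be told apart.

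All 8 samples carried liver transcripts at high intensity. Alb (albumin) read 10050, the top of the common distribution, in each of the 8 rats, and Ttr (transthyretin) stood at 7964, 7964, 7818 and 7818 in the D3T rats and at 8448, 7630, 8124 and 7818 in the control rats. Values this high are set by the quantile step itself. Of the 4 Alb probe sets 2 passed as higher in the D3T rats in this fit, and the probe set read here did not. Under 3 other scalings both genes passed as higher in the D3T rats, with differences of 1.60 for Alb and 1.28 for Ttr after division by the 75th percentile, 1.20 and 0.88 after division by the mean, and 0.67 and 0.43 after cyclic loess. The 9 measured hepatocyte markers summed to 35740 to 38120 in the D3T rats, against 39520 to 41560 in the control rats. Of the 9, 3 passed as lower, beside 8.28% of all genes. None was lower under all 5 scalings, beside 5.79% of all genes, and none was at 0 on all arrays.

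The sex-biased genes of these livers went against their labels. In vehicle rats of the 5-day groups, 9 of 21 measured sex-biased genes separated females from males by at least 2 log2 units, and for each of these 9 genes all 8 diet rats lay on the male side. Cyp2c11, the main male P450 of rat liver, had a median normalised intensity of 4127 in the D3T rats and 3646 in the control rats, against 0 in vehicle females and 3200 in vehicle males. Cyp2c12, its female counterpart, had medians of 34.8 in the D3T rats and 43.1 in the control rats, against 1884 in vehicle females and 282 in vehicle males. Over the 16 sex-biased genes whose vehicle sexes did not overlap, all 4 D3T rats lay on the male side for 15, Fmo1 being the exception, and all 4 control rats for 15, Cyp2a2 being the exception. The diet rats were labelled as 4 weeks old, and no age is listed here for the vehicle rats. The part of age in this pattern was not tested. The diet animals are called rats labelled female, no result can be given without them, and the comparison with PB and PCN is given against the groups of both sexes.

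**Figure D1:**
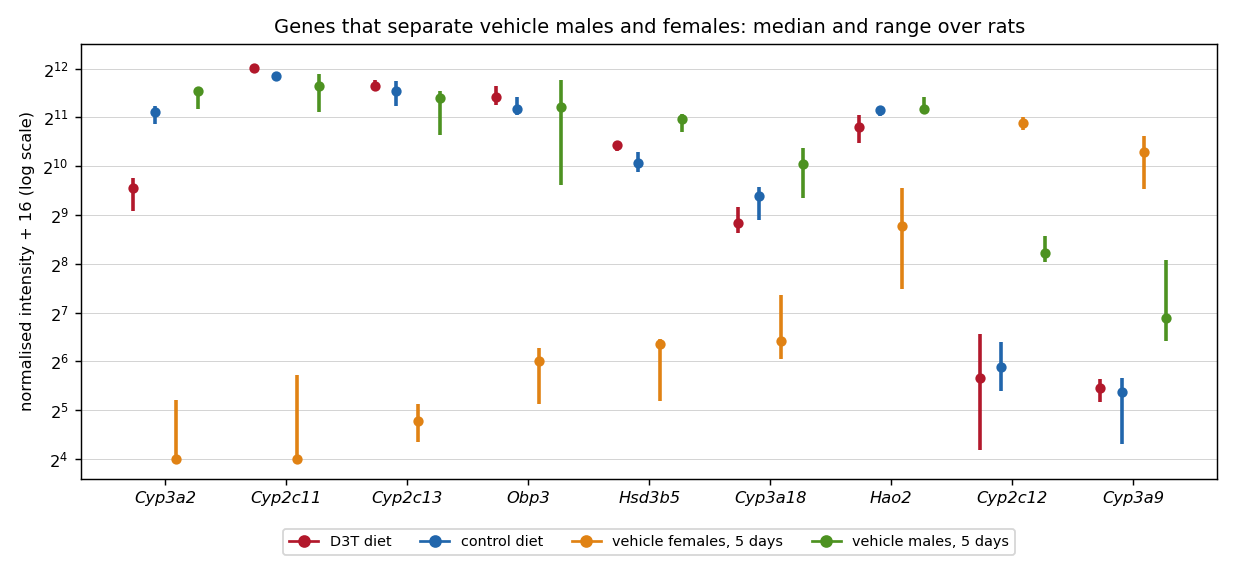
Normalised intensity + 16 (log axis) of 9 sex-biased genes, with the median (point) and range (line) of the 4 D3T rats, the 4 control rats, the 5 vehicle females and the 5 vehicle males, here after quantile normalisation of all arrays of the table together. The points of both diets lie on the male side: Cyp2c11 is at a median of 4127 in the D3T rats and 3646 in the control rats, against 0 in vehicle females. Not all lie at the level of the males: Cyp2c12 is at 34.8 and 43.1 in the D3T and control rats, against 282 in vehicle males.

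At an adjusted p under 0.05, 1097 of 8740 probe sets (12.6%) differed between the diets, 456 higher and 641 lower in the D3T rats. The balance of directions depended on the scaling. Of the calls, 41.6% were higher in the D3T rats in the fit above, 51.9% after division by the 75th percentile (1037 calls) and 16.8% after division by the mean (1629 calls). The total fell to 696 without control rat 3 and to 731 without control rat 2. Read by gene, 241 of 4736 genes (5.09%) were higher and 392 (8.28%) were lower. The genes that passed in the same direction under all 5 scalings were fewer, 91 higher (1.92%) and 274 lower (5.79%). For 24 of the genes called higher, the deposited values of all 4 D3T arrays exceeded those of all 4 control arrays although the D3T arrays were dimmer. Every gene named below as higher or lower between the diets on the probe set read had 4 D3T values that did not overlap the 4 control values. For genes outside the lists this was a condition for being named, so it adds no support of its own. The share of all probe sets without overlap is not given here. Where a gene had several probe sets, they often did not all pass. In these calls 1 of 2 probe sets passed for Akr1c14, Idi1, Plin2, Sult1c3, Cyp2b2, Scp2, Igfbp3, Cth, Trib3 and Cebpb, and 1 of 3 for Lss, Cyp2c11, Cyp4a1, Sardh and Cp. Col1a1 and Hrk passed on 1 of 4, Ccnd1 on 1 of 5, Sult2a1 and Pfkfb1 on 2 of 4, Sult2a2 and Ptprc on 2 of 3, Cd74 on 3 of 4, Cyp51 on 3 of 5 and Canx on 4 of 5.

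Glutathione transferases, which join glutathione to electrophiles, were the list with the largest share of higher genes among the conjugation lists. Of 16 measured, 10 were higher in the D3T rats and none was lower, beside 5.09% of all genes higher; 8 of the 10 passed under all 5 scalings, beside 1.92% of all genes. The median difference over the 16 was 0.49, against 0 over all probe sets. Gsta3, an alpha-class transferase, had normalised intensities of 1038, 844, 801 and 1297 in the D3T rats, against 17.3, 4.66, 13.3 and 9.94 in the control rats. The diets did not overlap, and the difference was 5.21 ± 0.21 (SE, n = 4 rats per diet), adjusted p = 0.000232, with all 3 of its probe sets higher. Its size depends on the 16 added before the logarithm, since the control values were near 0. It was 6.44 with 1 and 3.79 with 64 added instead. Gstp1, the pi-class form that rat hepatocytes normally hold at low levels and that marks early liver lesions, read 1359, 1071, 1458 and 2303 in the D3T rats and 54.2, 41.9, 49 and 17 in the control rats. Its difference was 4.79 ± 0.32 (5.28 and 3.91 with 1 and 64 added), adjusted p = 0.000818, and both of its probe sets rose. Even before normalisation Gstp1 stood at 709, 451, 589 and 1312 on the dim D3T arrays, against 79.2, 98, 67.6 and 21.2 on the control arrays.

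Other transferases had smaller differences. Gstt1, of the theta class, had 235, 378, 345 and 244 in the D3T rats and 95.8, 87.8, 108 and 119 in the control rats, a difference of 1.40 ± 0.18 with adjusted p = 0.00565. Several others moved by under 1 log2 unit. Gsta1, of the alpha class, read 2134, 2198, 1902 and 2321 in the D3T rats, against 1219, 1514, 1066 and 1432 in the control rats (0.71 ± 0.12). Gstm2, of the mu class, read 2785, 2497, 2550 and 3037 in the D3T rats, against 1774, 1559, 1649 and 1739 in the control rats (0.69 ± 0.07). Gstm1, of the same class, read 4275, 4232, 4183 and 4764 in the D3T rats and 3152, 2460, 2896 and 2476 in the control rats (0.67 ± 0.09). In each of these the D3T rats lay above every control rat, and each passed in all 8 fits that left out 1 rat. Gstt2 had 1739, 1841, 1821 and 1983 in the D3T rats and 1202, 1160, 1141 and 674 in the control rats (0.85 ± 0.19, adjusted p = 0.0349). Its call depended on single animals: it passed in 1 of the 8 fits without 1 rat, with an adjusted p of 0.0942 without D3T rat 4, and its second probe set did not pass. Probe sets whose name ends in s or f before "at", as for Gsta3, Gstp1, Gsta1, Gstm1 and Gstm2, were designed to match several similar transcripts, so members of 1 class cannot be fully told apart.

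**Figure D2:**
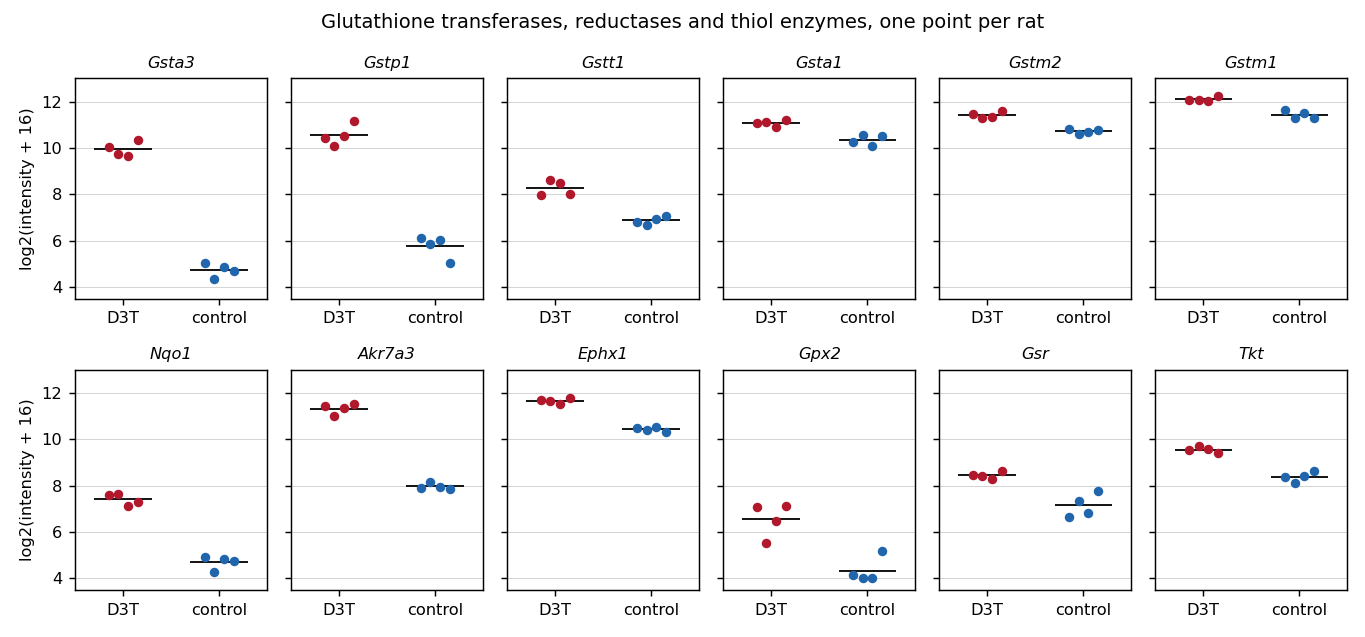
Values of 12 conjugation, reduction, glutathione and NADPH genes in each rat, as log2(normalised intensity + 16), 4 D3T rats on the left and 4 control rats on the right of each panel, with a line at the mean. The gap was 5.21 for Gsta3, 4.79 for Gstp1 and 3.36 for Akr7a3, and no larger than 0.71 for Gsta1, Gstm2 and Gstm1.

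Several enzymes that reduce quinones and aldehydes or open epoxides also rose. Of 12 measured, 5 were higher and 2 lower in the D3T rats, with 4 higher and 1 lower under all 5 scalings, beside 5.09% of all genes higher and 8.28% lower. Akr7a3, the aflatoxin aldehyde reductase of rat liver, had 2721, 2047, 2559 and 2907 in the D3T rats and 222, 273, 229 and 213 in the control rats, a difference of 3.36 ± 0.13 with adjusted p = 0.000226. Nqo1, the quinone reductase that is the standard readout of NRF2 activity, had 178, 185, 125 and 138 in the D3T rats and 13.9, 3.46, 12.9 and 10.9 in the control rats (2.72 ± 0.18, adjusted p = 0.000815). Its second probe set was listed at 0 in all 8 rats, so the call rests on 1 probe set, and the difference was 3.92 and 1.56 with 1 and 64 added. Ephx1, the microsomal epoxide hydrolase, had 3330, 3152, 2896 and 3541 in the D3T rats, against 1398, 1331, 1476 and 1248 in the control rats (1.23 ± 0.08, adjusted p = 0.000727). Akr1a1, an aldehyde reductase, had 1365, 1248, 1266 and 1321 in the D3T rats and 804, 738, 699 and 717 in the control rats (0.80 ± 0.05). Both passed in all 8 fits without 1 rat. Aldh1a1, which oxidises retinal and other aldehydes, read 1897, 1956, 2023 and 2266 in the D3T rats and 966, 1374, 974 and 1006 in the control rats (0.92 ± 0.13, adjusted p = 0.00745).

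The reductase that serves microsomal P450 enzymes moved the other way. Por (P450 oxidoreductase) had 436, 410.2, 338 and 484 in the D3T rats and 782, 761, 832 and 696 in the control rats, a difference of -0.86 ± 0.11 with adjusted p = 0.00602, and 2 of its 3 probe sets were lower. Akr1c14, a 3α-hydroxysteroid dehydrogenase, had 829, 712, 736 and 876 in the D3T rats and 1062, 1038, 1052 and 1172 in the control rats (-0.45 ± 0.08), and passed under 4 of the 5 scalings.

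Among genes of glutathione synthesis and thiol redox, 5 of 22 were higher and none was lower in the D3T rats, of which 2 passed under all 5 scalings, beside 5.09% and 1.92% of all genes. Gpx2, a glutathione peroxidase best known from the gut lining, had 118, 30.2, 73.1 and 122 in the D3T rats and 1.63, 0, 0 and 20.4 in the control rats. The D3T rats lay above the control rats, but 1 D3T rat came close to control rat 4, and the difference of 2.21 ± 0.45 (adjusted p = 0.0246) passed in 2 of the 8 fits without 1 rat, with 0.0716 without control rat 2. Gsr, which regenerates reduced glutathione, had 337, 323, 292 and 384 in the D3T rats and 85.5, 143, 98.2 and 202 in the control rats (1.30 ± 0.25, adjusted p = 0.0209). All 3 of its probe sets were higher, and the call held in 5 of the 8 fits without 1 rat (0.061 without D3T rat 4). Gclm, the modifier subunit of the rate-limiting enzyme of glutathione synthesis, had 498, 684, 625 and 692 in the D3T rats and 403, 412, 428 and 414 in the control rats (0.56 ± 0.10, adjusted p = 0.0186). That call is uncertain, since another of its 3 probe sets passed as lower (-1.20), the call held under 3 of the 5 scalings, and it missed the threshold without control rat 2 (0.0551).

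Several genes often used as NRF2 readouts did not pass. Gclc, the catalytic subunit of the same enzyme, had 69.5, 92.7, 87.2 and 142 in the D3T rats and 21.4, 41, 43.3 and 64.2 in the control rats, a difference of 0.97 ± 0.28 with a 95% interval of 0.30 to 1.65 and adjusted p = 0.0744. Gss, glutathione synthetase, had 128, 65, 109 and 118 in the D3T rats and 0, 37.4, 0 and 41.5 in the control rats, and its difference was 1.99 ± 0.53 (interval 0.71 to 3.27, adjusted p = 0.0591). These 2 intervals lay above 0 while the adjusted p missed the threshold. With 64 added in place of 16 Gss passed (0.032). Txnrd1, thioredoxin reductase, had 418, 432, 522 and 819 in the D3T rats and 375, 494, 409 and 399 in the control rats (0.33 ± 0.22, interval -0.21 to 0.87). Hmox1, inducible haem oxygenase, had 79.5, 57.6, 73.8 and 109.7 in the D3T rats and 72.9, 58.2, 73.1 and 66.9 in the control rats (0.18 ± 0.16, interval -0.22 to 0.57), so the diets overlapped. Abcc3, an efflux pump for conjugates, had 42, 32.8, 1.59 and 84 in the D3T rats and 10.1, 5.27, 8.36 and 12.5 in the control rats (0.92 ± 0.51, interval -0.31 to 2.15).

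NADPH, the reducing power behind these reactions, comes from the pentose phosphate pathway and malic enzyme. Of 6 measured genes 3 were higher and 2 lower in the D3T rats, beside 5.09% of all genes higher and 8.28% lower. Tkt, transketolase, had 715, 809, 741 and 654 in the D3T rats, against 313, 259, 324 and 382 in the control rats (1.16 ± 0.12, adjusted p = 0.00342), and it was the 1 member that passed under all 5 scalings. Me1, malic enzyme, had 684, 581, 896 and 857 in the D3T rats and 511, 380.2, 509.7 and 377 in the control rats (0.74 ± 0.18, adjusted p = 0.0454), with 3 of 5 probe sets higher but a pass in 1 of the 8 fits without 1 rat and an adjusted p of 0.114 without D3T rat 4. Nnt, the mitochondrial transhydrogenase, was lower at 474, 622, 561 and 429 in the D3T rats, against 692, 802, 732 and 693 in the control rats (-0.48 ± 0.12), also with a pass in 1 of those 8 fits (adjusted p = 0.126 without D3T rat 1) and not with 1 added in place of 16 (0.0532).

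Glucuronidation was represented by 10 genes, of which 2 were higher and none lower, beside 5.09% and 8.28% of all genes. None passed under all 5 scalings. Ugt2b1, a steroid glucuronosyltransferase, had 570.1, 437, 468 and 567 in the D3T rats and 200.4, 268, 258 and 253 in the control rats (1.01 ± 0.12, adjusted p = 0.00501). A further 308 probe sets are assigned to more than 1 gene and name none. Of these, 55 were higher and 18 lower in the D3T rats, beside 12.6% of all probe sets called in either direction. The largest rises among them were 4.60 ± 0.29 for probe set D38061exon_s_at and 2.68 ± 0.18 for S56936_s_at. Probe set K00136mRNA_at rose by 1.89 ± 0.11, with 2516, 2054, 2272 and 2958 in the D3T rats and 625, 655, 651 and 636 in the control rats.

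Promoters of the antioxidant and conjugation genes that rose were searched for the core of the antioxidant response element, TGACNNNGC, on both strands of the 250 bases before the gene start. Of the 23 such genes 19 had a promoter in the RefSeq set (GRCr8), and 6 of these 19 (31.6%) held the core. The share was 10.1% over 33469 RefSeq promoters, 14.2% over measured genes that were higher (29 of 204), 17.3% over those that were lower (58 of 336) and 12.6% over those that did not pass (422 of 3339). A match describes these letters and is not a site of binding. The stretches around the core are shown for these 6 genes, since they include Gsta3 and Gstp1, as the gene reads from 5′ to 3′, with the core or its reverse complement in capitals.
Ephx1 (chr13:95263146-95263194, minus strand): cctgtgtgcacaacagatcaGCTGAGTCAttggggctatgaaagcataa
Gclm (chr2:213031943-213031991, plus strand): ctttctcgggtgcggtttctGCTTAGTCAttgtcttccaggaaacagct
Gpx2 (chr6:101230034-101230066, minus strand): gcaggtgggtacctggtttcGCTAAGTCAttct
Gsta3 (chr9:31154952-31154988, plus strand): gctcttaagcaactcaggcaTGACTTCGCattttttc
Gstp1 (chr1:210769738-210769786, minus strand): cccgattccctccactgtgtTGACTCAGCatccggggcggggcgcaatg
Me1 (chr8:96540383-96540431, minus strand): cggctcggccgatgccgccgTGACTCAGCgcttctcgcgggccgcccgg
In Gsta3, Gpx2, Ephx1 and Gstp1 the core began 17, 13, 57 and 61 bases before the start, and in Gclm and Me1 172 and 167 bases before it. It ran in the direction of the gene in Gsta3, Gstp1 and Me1 and opposite to it in Ephx1, Gclm and Gpx2.

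Genes of cholesterol synthesis were lower in the D3T rats. Of 15 measured genes of sterol synthesis and uptake, 7 were lower and none higher, beside 8.28% of all genes lower, and all 7 passed under all 5 scalings, beside 5.79% of all genes. The median difference of the 15 was -0.69. Sqle, squalene epoxidase, had 0, 0, 9.56 and 0 in the D3T rats and 112, 239, 68.9 and 103 in the control rats (-2.90 ± 0.36, adjusted p = 0.00513). Since 3 of the D3T rats were at 0, that difference depends on the added constant, and was -6.04 and -1.48 with 1 and 64 added. Idi1, which isomerises isopentenyl diphosphate, had 38.7, 29.6, 50.8 and 30.4 in the D3T rats and 253, 441, 339 and 265 in the control rats (-2.66 ± 0.21, adjusted p = 0.00158). Msmo1, a demethylase of lanosterol products, had 168, 142, 199.5 and 181 in the D3T rats and 1014, 1004, 503 and 728 in the control rats (-2.09 ± 0.24, adjusted p = 0.00419). Each of the 3 passed in all 8 fits without 1 rat.

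Lss, Cyp51 and Ebp, of the same pathway, had smaller differences. Lss, lanosterol synthase, had 129, 103, 116 and 106 in the D3T rats and 196, 200, 179.9 and 150.5 in the control rats (-0.61 ± 0.10, adjusted p = 0.0138). Cyp51, lanosterol demethylase, had 173, 128, 224 and 123 in the D3T rats and 284, 296, 280.5 and 368 in the control rats (-0.89 ± 0.20, adjusted p = 0.0327), with 3 of 5 probe sets lower. Ebp, a sterol isomerase, had 278, 422, 327 and 258 in the D3T rats and 543, 590.5, 470.5 and 625 in the control rats (-0.78 ± 0.17, adjusted p = 0.0285). The calls for Cyp51 and Ebp rest on single rats, since they passed in 1 and 2 of the 8 fits without 1 rat, with an adjusted p up to 0.0777 for Cyp51 without control rat 2 and 0.0791 for Ebp without D3T rat 1.

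The 2 regulators of this pathway that are named here moved in opposite directions. Insig1, which holds the sterol sensor SCAP and the SREBP factors in the endoplasmic reticulum and is itself an SREBP target, had 125, 139, 120.3 and 74.5 in the D3T rats and 824, 834, 428 and 727 in the control rats (-2.44 ± 0.27, adjusted p = 0.00367), with both probe sets lower. Srebf1, which encodes the SREBP1 factors of fatty acid synthesis, had 524, 539, 301 and 395 in the D3T rats and 218, 77, 58.5 and 129.7 in the control rats (1.84 ± 0.40, adjusted p = 0.0297). Every D3T rat lay above every control rat for Srebf1, yet it passed in 2 of the 8 fits without 1 rat, with 0.0833 without D3T rat 1. Among 18 genes of fatty acid synthesis and storage, 3 were higher and 1, Insig1, was lower, beside 5.09% and 8.28% of all genes. Only Insig1 passed under all 5 scalings. Plin2, the coat protein of lipid droplets, had 1736, 956, 1226 and 1668 in the D3T rats and 641, 563, 749 and 724 in the control rats (1.01 ± 0.21, adjusted p = 0.0269, passed in 1 of the 8 fits, with 0.076 without control rat 2). Fasn, fatty acid synthase, had 681, 400.4, 351 and 266 in the D3T rats and 244, 66.7, 129 and 144 in the control rats and did not pass (1.48 ± 0.42, interval 0.47 to 2.49).

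**Figure D3:**
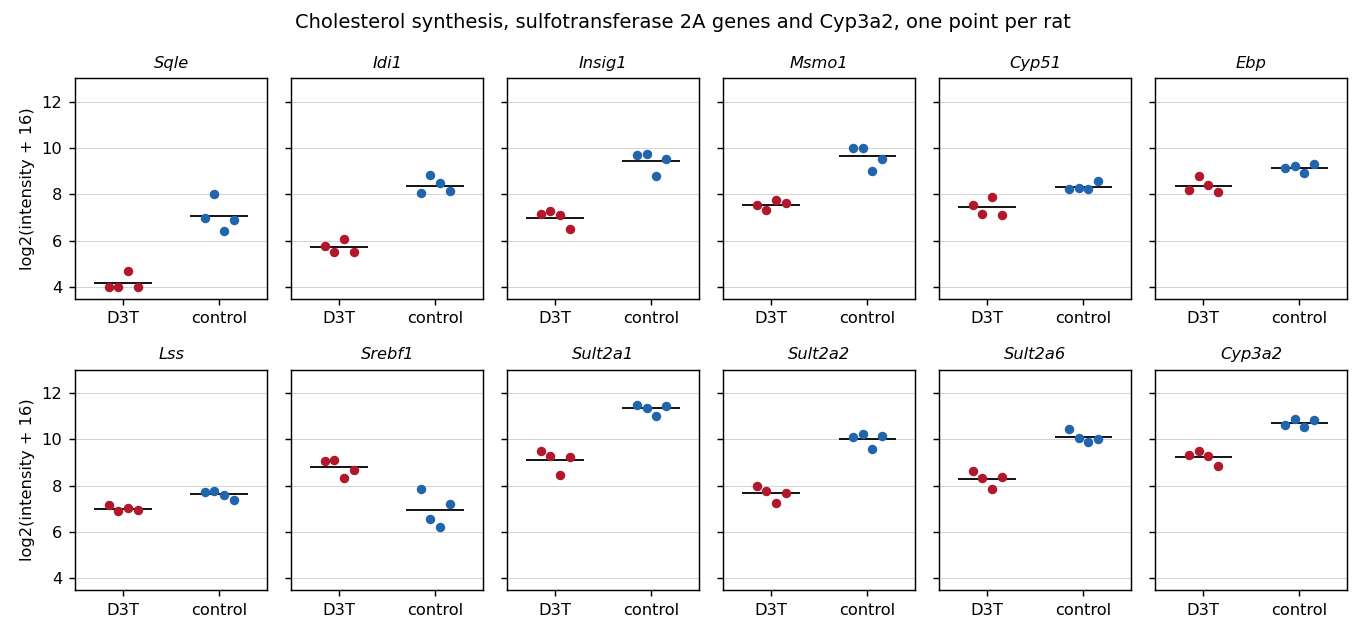
Values of sterol synthesis genes, Insig1, Srebf1, 3 hydroxysteroid sulfotransferases and Cyp3a2 in each rat, as log2(normalised intensity + 16), D3T on the left and control on the right, with a line at the mean. Every gene except Srebf1 lies lower in the D3T rats, and the differences for Sqle, Idi1, Insig1 and Msmo1 run from -2.90 to -2.09.

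Sulfotransferases, acetyltransferases and methyltransferases had 5 of 17 genes lower and none higher, with 3 lower under all 5 scalings, beside 8.28% and 5.79% of all genes. All 3 were hydroxysteroid sulfotransferases, which sulfate bile acids and steroids. Sult2a1 had 696, 605, 336 and 587 in the D3T rats and 2870, 2625, 2059 and 2735 in the control rats (-2.21 ± 0.24, adjusted p = 0.00355). Sult2a2 had 237, 202, 134 and 191 in the D3T rats and 1063, 1172, 755 and 1112 in the control rats (-2.34 ± 0.20, adjusted p = 0.00227). Sult2a6 had 378, 301, 218 and 310.5 in the D3T rats, against 1372, 1039, 919.6 and 1019 in the control rats (-1.80 ± 0.19, adjusted p = 0.00348). Their probe sets are of the kind shared within a family, so these are not 3 independent measurements. Sult1c3, of another family, had 1060, 1309, 1292 and 1006 in the D3T rats and 1690, 1664, 1635 and 1551 in the control rats (-0.49 ± 0.10, passed in 4 of the 8 fits without 1 rat, with 0.070 without control rat 2).

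Of 13 P450 genes known to be induced through CAR or PXR, 2 were higher and 1 lower, beside 5.09% and 8.28% of all genes, and the 1 that passed under all 5 scalings was lower. Cyp3a2, a steroid 6β-hydroxylase of male rat liver, had 617, 694, 601 and 446 in the D3T rats and 1557, 1831, 1465 and 1806 in the control rats (-1.48 ± 0.15, adjusted p = 0.0032). Cyp2b2, the classical PB-inducible form, had 613, 718, 641 and 666 in the D3T rats and 439.5, 535, 466 and 479 in the control rats (0.45 ± 0.07, adjusted p = 0.0116), passed under 3 of the 5 scalings, and turned to -0.57 when the deposited values were taken relative to their median shift. Cyp2a1, a testosterone hydroxylase with a female bias, had 1018, 897, 782 and 1084 in the D3T rats and 532, 467, 547 and 378 in the control rats (0.95 ± 0.15, adjusted p = 0.011).

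Outside that list, 2 of 23 P450 genes were higher and 5 lower, beside 5.09% and 8.28% of all genes. Under all 5 scalings 1 was higher and 3 lower. Cyp1a2, which oxidises arylamines, was lower at 462, 667, 568 and 309 in the D3T rats, against 1354, 1207, 1196 and 816 in the control rats (-1.19 ± 0.27, adjusted p = 0.0346), on all 3 of its probe sets, but passed in 2 of the 8 fits without 1 rat, with 0.092 without D3T rat 1. Cyp17a1, of steroid synthesis, had 45.9, 47.3, 88.1 and 42.6 in the D3T rats and 123, 92.8, 146 and 127 in the control rats (-0.97 ± 0.22), and likewise passed in 2 of the 8 fits (0.0935 without D3T rat 1). Fmo1, a flavin monooxygenase, had 131, 278, 287 and 138 in the D3T rats and 539, 878, 622 and 645 in the control rats (-1.68 ± 0.31, adjusted p = 0.0183), and missed the threshold without control rat 3 (0.0516). Of 12 genes listed for a female bias in rat liver, 5 were lower and 1 higher, beside 8.28% and 5.09% of all genes. The 5 were Sult2a1, Sult2a2, Sult2a6, Cyp17a1 and Fmo1, all lower under all 5 scalings. The list's name did not hold for all of them in these arrays. Fmo1 was higher in vehicle males than in vehicle females (1.14 log2 units, no overlap), as was Hao2 of the same list (2.74). The vehicle sexes overlapped for Cyp17a1. Of 9 genes listed for a male bias, 1 was higher and 2 lower. Cyp2c11 was the higher one at 3196, 3129, 3330 and 3113 in the D3T rats, against 2796, 2785, 2785 and 2721 in the control rats (0.20 ± 0.02, adjusted p = 0.00419), but turned to -0.19 when the deposited values were taken relative to their median shift. Cyp2c12 had 64.5, 24.2, 0 and 26.1 in the D3T rats and 55.6, 17.3, 38.7 and 27 in the control rats and did not pass (-0.34 ± 0.51).

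Peroxisomal and PPARA target genes were mixed, with 1 of 26 higher and 5 lower, beside 5.09% and 8.28% of all genes. Under all 5 scalings 1 was higher and 3 lower. The 1 higher gene was Acaa1b, a peroxisomal thiolase, at 1160, 1063, 1461 and 1534 in the D3T rats and 462, 391, 480.5 and 293 in the control rats (1.65 ± 0.19, adjusted p = 0.00422). Scp2, a peroxisomal sterol carrier and thiolase, had 646, 638, 590.5 and 630.4 in the D3T rats and 836, 952, 873 and 1060 in the control rats (-0.55 ± 0.08, adjusted p = 0.00727). Ech1, which isomerises dienoyl-CoA, had 219, 328, 599.7 and 374 in the D3T rats and 711, 1128, 869 and 1014 in the control rats (-1.32 ± 0.31, adjusted p = 0.0387). Cyp4a1, a fatty acid ω-hydroxylase, had 315, 261, 503 and 337 in the D3T rats and 607, 842, 670.2 and 580.5 in the control rats (-0.93 ± 0.22), and Ehhadh, of peroxisomal β-oxidation, had 264, 274, 316 and 234 in the D3T rats and 367, 415, 433 and 574 in the control rats (-0.67 ± 0.15). Ech1, Cyp4a1 and Ehhadh passed in 1, 1 and 3 of the 8 fits without 1 rat, with adjusted p up to 0.0968 without control rat 2, 0.103 without D3T rat 1 and 0.0875 without D3T rat 1. In mitochondrial fatty acid oxidation, 2 of 26 were higher and 2 lower, near the 5.09% and 8.28% of all genes. Hadh, a hydroxyacyl-CoA dehydrogenase, had 43.2, 40.6, 61.4 and 43.4 in the D3T rats and 3.54, 0, 20.6 and 0 in the control rats (1.60 ± 0.29, adjusted p = 0.0172), and missed the threshold when 1 was added in place of 16 (0.0599).

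Amino acid genes moved in both directions, with 5 of 39 higher and 8 lower in a list that joined the urea cycle to amino acid breakdown. These shares stood beside 5.09% and 8.28% of all genes, and under all 5 scalings 2 were higher and 3 lower. Cth, cystathionine γ-lyase, which makes cysteine from methionine, had 717, 719.6, 978 and 761 in the D3T rats and 297, 317, 274 and 316 in the control rats (1.34 ± 0.11, adjusted p = 0.00176). Sardh, sarcosine dehydrogenase, had 259, 234, 209 and 351 in the D3T rats and 116, 65, 21.5 and 33.5 in the control rats (2.04 ± 0.41, adjusted p = 0.0243), but passed in 2 of the 8 fits without 1 rat, with 0.0677 without D3T rat 4. On the lower side, Oat, ornithine aminotransferase, had 337, 503, 267 and 270 in the D3T rats and 1340, 950.5, 1135 and 1045 in the control rats (-1.69 ± 0.22, adjusted p = 0.00617). Tdo2, which opens tryptophan, had 2118, 2397, 2516 and 2165 in the D3T rats and 3080, 4193, 3453 and 3702 in the control rats (-0.64 ± 0.11).

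In glucose metabolism 2 of 29 genes were higher and 5 lower, beside 5.09% and 8.28% of all genes. Under all 5 scalings 1 was higher and 3 lower. Pfkfb1, the liver bifunctional enzyme that sets fructose 2,6-bisphosphate, had 164, 212, 244 and 156 in the D3T rats and 436, 715, 502 and 722 in the control rats (-1.53 ± 0.22, adjusted p = 0.00828). Slc2a2, the glucose transporter of hepatocytes, had 781, 909, 847 and 701 in the D3T rats and 1297, 1138, 1270 and 1244 in the control rats (-0.61 ± 0.09, adjusted p = 0.00779). Both passed in all 8 fits without 1 rat.

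Many genes for secreted liver proteins were lower. Of 23 complement and coagulation genes 12 were lower and none higher, 6 of them under all 5 scalings, with a median of -0.39, beside 8.28% and 5.79% of all genes. Of 27 acute phase genes 11 were lower and 2 higher, but only 1 was lower under all 5 scalings, so most of that count depends on the scaling. Klkb1, plasma prekallikrein, had 643, 914, 834 and 711 in the D3T rats and 1493, 1734, 1709 and 1496 in the control rats (-1.05 ± 0.12, adjusted p = 0.00419). C1s, a complement protease, had 622, 744, 742 and 608 in the D3T rats and 1162, 1305, 1138 and 1446 in the control rats (-0.88 ± 0.11, adjusted p = 0.00471). Cfd, complement factor D, had 28.3, 7.32, 23.8 and 0 in the D3T rats and 84.2, 58, 95.9 and 119 in the control rats (-1.85 ± 0.37, passed in 4 of the 8 fits without 1 rat, with 0.0692 without control rat 3, and not with 1 added in place of 16, 0.115).

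Il6r, the interleukin 6 receptor that drives the acute phase, had 147, 193, 229 and 159 in the D3T rats and 542, 688, 555 and 682 in the control rats (-1.68 ± 0.15, adjusted p = 0.00264), and was the acute phase gene that was lower under all 5 scalings. Cp, ceruloplasmin, had 1766, 1919, 2198 and 1989 in the D3T rats and 2999, 3129, 3096 and 3037 in the control rats (-0.64 ± 0.06). Apcs, serum amyloid P, had 1476, 1728, 1544 and 1333 in the D3T rats and 2497, 3321, 3171 and 3254 in the control rats (adjusted p = 0.00426). Both Cp and Apcs passed under 4 of the 5 scalings. The 2 acute phase genes that were higher were A2m, α2-macroglobulin, at 143, 116, 176 and 209.5 in the D3T rats and 78.3, 44.1, 58.2 and 47 in the control rats (1.28 ± 0.21, 1 of 6 probe sets), and Orm1, orosomucoid, at 2033, 1774, 2153 and 2014 in the D3T rats and 1048, 1233, 1359 and 818 in the control rats (0.85 ± 0.16, passed in 4 of the 8 fits without 1 rat, with 0.0576 without D3T rat 1).

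The growth hormone and IGF axis had 3 of 22 genes lower and 1 higher, beside 8.28% and 5.09% of all genes. Under all 5 scalings 1 was lower and none higher. Igf1, the main endocrine growth factor of liver, had 1831, 2125, 1751 and 1633 in the D3T rats and 3282, 3239, 3152 and 3607 in the control rats (-0.85 ± 0.09, adjusted p = 0.00323), with 4 of 5 probe sets lower. Igfbp3, its main carrier in blood, had 28.7, 21, 36.7 and 38.3 in the D3T rats and 116, 143, 130.5 and 209 in the control rats (-1.80 ± 0.20, adjusted p = 0.00386). Igfbp1, a short-lived carrier, had 249.7, 468, 789 and 370.5 in the D3T rats and 1074, 1530, 1170 and 1321 in the control rats (-1.52 ± 0.34, passed in 1 of the 8 fits without 1 rat, with 0.0939 without D3T rat 4).

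Transporters had 4 of 24 genes lower and none higher, beside 8.28% and 5.09% of all genes. Only 1 of the 4 was lower under all 5 scalings. Slco1a1, an organic anion uptake carrier, had 98.3, 124, 117 and 80.9 in the D3T rats and 177, 259, 234 and 266 in the control rats (-1.04 ± 0.17, adjusted p = 0.0116). Of 15 haem and iron genes 3 were lower and none higher, with 1 lower under all 5 scalings. Among the 3 was Slc40a1, the iron exporter ferroportin, at 105, 163, 105 and 101 in the D3T rats and 256, 329, 266 and 258 in the control rats (-1.14 ± 0.16, adjusted p = 0.0077), on both probe sets.

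In the circadian list 2 of 9 genes were higher and 3 lower, beside 5.09% and 8.28% of all genes. Per2, a clock repressor, had 3.38, 6.73, 1.04 and 0 in the D3T rats and 31.4, 56.7, 34.5 and 50.1 in the control rats (-1.65 ± 0.18, adjusted p = 0.00363), and Nr1d2, a REV-ERB receptor, had 63.6, 104, 73 and 59.4 in the D3T rats and 157, 203, 175 and 242 in the control rats (-1.22 ± 0.19). The hour of sampling is not given in the sources used here. In the endoplasmic reticulum and ATF4 list 2 of 17 were higher and 3 lower, the 3 under all 5 scalings. Canx, the chaperone calnexin, had 271, 224, 315 and 279 in the D3T rats and 596, 674, 596 and 755 in the control rats (-1.22 ± 0.12, adjusted p = 0.00311), and Trib3, an ATF4 target, had 246, 182, 116 and 252 in the D3T rats and 22.4, 84, 54.7 and 34.6 in the control rats (1.77 ± 0.37, passed in 2 of the 8 fits without 1 rat, with 0.0754 without D3T rat 1).

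Of 28 cell cycle genes 1 was higher and 1 lower, beside 5.09% and 8.28% of all genes. Ccnd1, cyclin D1, had 84.7, 111, 121 and 111 in the D3T rats and 226, 159.9, 216 and 196 in the control rats (-0.81 ± 0.14). Cdkn2b, a cyclin-dependent kinase inhibitor, had 30.3, 54.9, 42.5 and 45.6 in the D3T rats and 4.18, 16.6, 4.53 and 0 in the control rats (1.44 ± 0.24), and did not pass with 1 added in place of 16 (0.0595). Among 34 nuclear receptors and liver transcription factors 1 was higher and 1, the liver regulator Cebpb, was lower, at 442, 528, 461 and 499 in the D3T rats and 694, 741, 705 and 718 in the control rats (-0.55 ± 0.06, adjusted p = 0.00326). Cytosolic ribosomal protein genes were higher in 9 of 37 cases and lower in 1, with 4 higher under all 5 scalings. The largest, Rps24, had 165, 167, 198 and 154 in the D3T rats and 30.9, 70.2, 0 and 13.3 in the control rats (2.33 ± 0.50, passed in 2 of the 8 fits without 1 rat, with 0.0794 without D3T rat 3, and not with 1 added in place of 16, 0.134).

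**Figure D4:**
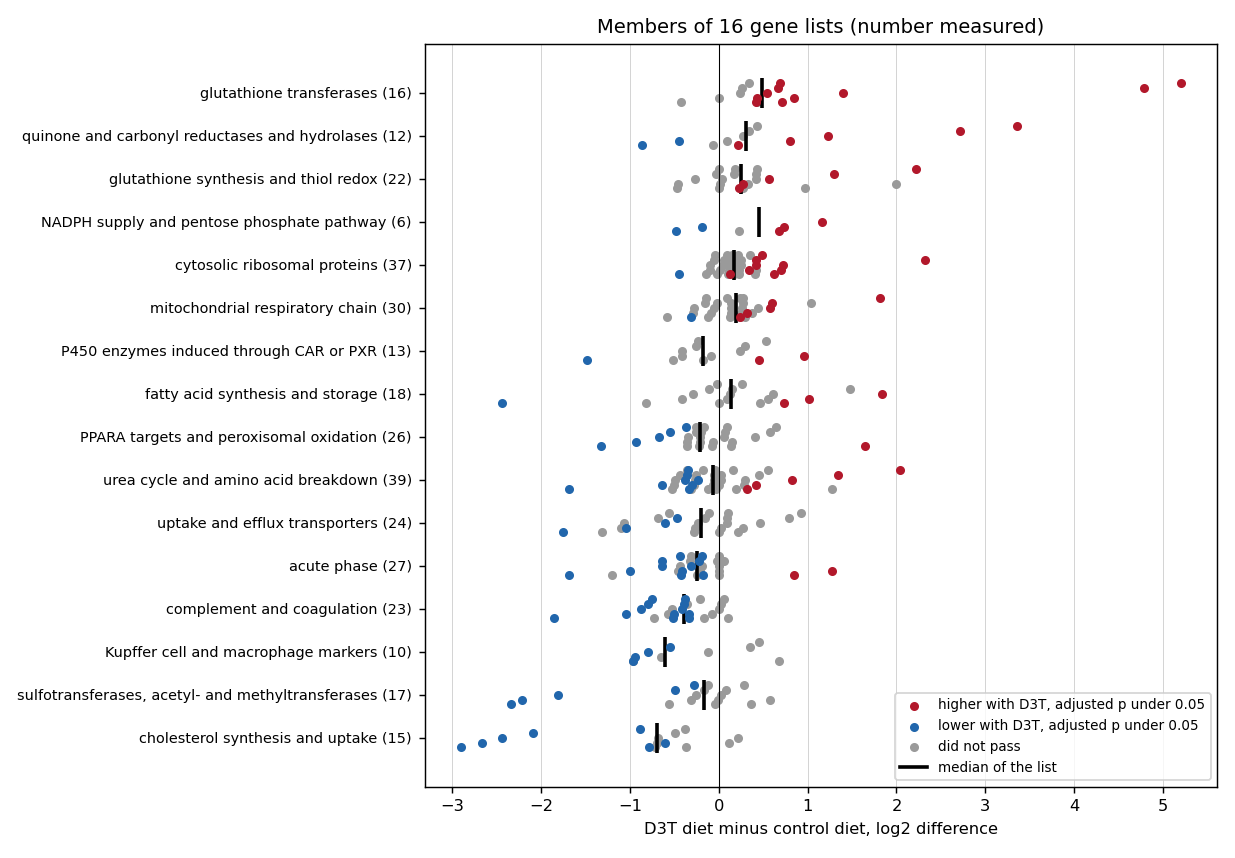
Log2 difference, D3T minus control, of each measured gene in 16 lists, with genes that passed as higher in red, as lower in blue and the rest in grey, and a black bar at the list's median. Glutathione transferases hold 10 of 16 genes in red and none in blue, and cholesterol synthesis 7 of 15 in blue and none in red.

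Markers of cells other than hepatocytes differed between the diets too. Of 10 Kupffer cell and macrophage markers 4 were lower and none higher, all 4 under all 5 scalings, beside 8.28% and 5.79% of all genes, and the 10 summed to 1669 to 1951 in the D3T rats, against 2234 to 2688 in the control rats, with none at 0 on all arrays. Ptprc, the leukocyte antigen CD45, had 32.5, 22.7, 34.6 and 28.5 in the D3T rats and 77.8, 54.1, 83.5 and 78.8 in the control rats (-0.97 ± 0.14). Clec4f, a Kupffer cell lectin, had 223, 321, 291 and 233 in the D3T rats and 511, 484, 466 and 637 in the control rats (-0.94 ± 0.15). The other 2 were Cd74, the invariant chain, at 323, 264, 303 and 447 in the D3T rats and 647, 543, 561 and 583 in the control rats (-0.80 ± 0.16, passed in 2 of the 8 fits, with 0.0632 without D3T rat 1), and C1qb, a complement subunit made by macrophages, at 221, 257, 284 and 289 in the D3T rats and 438, 342, 409 and 376 in the control rats (-0.55 ± 0.11, passed in 5 of the 8 fits, with 0.0669 without control rat 3). The remaining 6 markers did not pass. The differences of the 10 ran from -0.97 to 0.68, with a median of -0.60, so not every member was lower. The part of Kupffer cells and macrophages in the lower complement genes was not tested.

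Of 8 endothelial markers 1 was lower, beside 8.28% of all genes. It was the sinusoidal receptor Lyve1, at 42, 97.9, 82.2 and 61.4 in the D3T rats and 177, 218, 169 and 206 in the control rats (-1.30 ± 0.22). The 8 summed to 491 to 636 in the D3T rats, against 745 to 826 in the control rats. Stellate cell and fibroblast markers were split, with 3 of 18 lower and 2 higher, beside 8.28% and 5.09% of all genes. They summed to 3962 to 4610 in the D3T rats, against 3209 to 3929 in the control rats, with 1 at 0 on all arrays. Sparc alone, given below, supplied 2143 to 2625 of this in the D3T rats, against 1367 to 1526 in the control rats. The median difference of the 18 was -0.36. Col1a1, the main fibrillar collagen, had 53.7, 47.6, 62.5 and 59.4 in the D3T rats and 224, 234, 195 and 203 in the control rats (-1.68 ± 0.08, adjusted p = 0.000366). Mgp, matrix Gla protein, had 66.1, 88.1, 112 and 109 in the D3T rats and 218, 213, 203 and 236 in the control rats (-1.11 ± 0.15), and Col5a2, another fibrillar collagen, had 6.84, 12.5, 17.5 and 3.96 in the D3T rats and 33.3, 38.8, 33.9 and 51.3 in the control rats (-1.10 ± 0.19). Sparc, a matrix glycoprotein, was higher at 2143, 2362, 2625 and 2397 in the D3T rats, against 1526, 1414, 1479 and 1367 in the control rats (0.71 ± 0.07), but another of its 4 probe sets passed as lower (-0.83).

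None of 12 bile duct and progenitor markers passed, with sums of 1441 to 1717 in the D3T rats and 1037 to 1492 in the control rats. Of 13 lymphocyte markers 1 was higher and 1 lower, with sums of 387 to 567 in the D3T rats and 434 to 455 in the control rats and 3 at 0 on all arrays. Of 9 erythroid and blood markers 1 was lower, Hbb (β-globin), at 2582, 2471, 2362 and 2023 in the D3T rats and 4193, 2999, 3330 and 3681 in the control rats (-0.58 ± 0.12), which passed in 2 of the 8 fits without 1 rat (0.0709 without control rat 4) and under 3 of the 5 scalings. The erythroid list summed to 3809 to 4939 in the D3T rats, against 5204 to 7219 in the control rats. Over all genes 5.09% were higher and 8.28% lower, so the single calls in these small lists were near those shares. The part of any of these lists in the results above was not tested.

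Genes outside the lists were named by the size of their change. On the higher side, Mpst, which transfers sulfur from a cysteine product, had 120.2, 182, 289 and 166 in the D3T rats and was listed at 0 in all 4 control rats (adjusted p = 0.000727). The deposited control values of Mpst were far below 0, at -467.4, -187, -357.5 and -53.2, and were set to 0 here. Hrk, a BH3-only protein of the apoptosis pathway, had 353, 217, 248 and 272 in the D3T rats and 0, 20.6, 0 and 53 in the control rats (3.33 ± 0.51, adjusted p = 0.0103), on 1 of 4 probe sets. It missed the threshold when 1 was added in place of 16 (0.0595). Sv2c, a synaptic vesicle protein, had 94.4, 23.2, 39.4 and 83.5 in the D3T rats, Notch4, a Notch receptor, 51.9, 72.1, 45 and 30.8, and Pold1, the catalytic subunit of DNA polymerase δ, 49.3, 65.6, 19.7 and 46.2. These 3 genes were listed at 0 in all 4 control rats, with adjusted p = 0.0116, 0.0026 and 0.00604 in that order. Their deposited control values were all below 0 too. Dtd1, an editing enzyme of aminoacyl-tRNA, had 64.9, 39.6, 43.2 and 56.3 in the D3T rats and 0, 0, 0 and 10.5 in the control rats. Vom2r21, of the vomeronasal receptor family, had 88.4, 68.5, 64.2 and 80 in the D3T rats and 19.7, 0.413, 17.8 and 0 in the control rats. Tulp1 had 172, 135, 41 and 143 in the D3T rats and 0, 0, 0 and 37.6 in the control rats, and passed in 2 of the 8 fits without 1 rat (0.0888 without control rat 3). With 1 added in place of 16, Tulp1 and Vom2r21 (adjusted p = 0.0770) did not pass either. Most of these intensities were under 100, near the floor of the scale.

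On the lower side, Dcaf6 had 0, 153.1, 42 and 0 in the D3T rats and 354, 412, 468 and 328 in the control rats (-3.34 ± 0.80, passed in 1 of the 8 fits without 1 rat, with 0.104 without control rat 3). With 2 of the D3T rats at 0, its difference was -5.43 with 1 added, where it did not pass (0.115), and -2.19 with 64 added. Dhrs7b, a short-chain dehydrogenase, had 0, 0, 9.27 and 0 in the D3T rats and 96.8, 108, 105 and 101.5 in the control rats (-2.73 ± 0.16, adjusted p = 0.000597), or -5.86 and -1.33 with 1 and 64 added. Bmp2k, a protein kinase, had 13.9, 18.8, 9.96 and 0.18 in the D3T rats and 95.3, 135, 220.4 and 109 in the control rats (-2.54 ± 0.33), and Btd, biotinidase, had 37.4, 50.9, 62 and 42.5 in the D3T rats and 154, 383, 198 and 277 in the control rats (-2.01 ± 0.28). Ltbp1, a binding protein of latent TGF-β, and Ptk2, focal adhesion kinase, were listed at 0 in all 4 D3T rats, against 54.2, 39.7, 44.6 and 78.9 for Ltbp1 and 46.8, 52.5, 38.7 and 78 for Ptk2 in the control rats. Ttc3, Ptpn12 and Myl6b were at or near 0 in the D3T rats, at no more than 10.7, 9.68 and 7.5, against 64.9 to 101 for Ttc3, 48.4 to 61.5 for Ptpn12 and 40.9 to 85.3 for Myl6b in the control rats.

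Whether the response to D3T differed from the response to PB or PCN was tested in 1 fit of 23 arrays, as the D3T effect against its control diet minus the PB or PCN effect against vehicle. Each effect is measured against its own controls, and the agents were given in separate experiments, D3T in the diet. Against PB in females 485 of 4736 genes (10.2%) passed, 191 higher and 294 lower, and against PCN 619 (13.1%) passed, 235 higher and 384 lower. With the male PB, PCN and vehicle groups in place of the female ones, the numbers were 498 (10.5%) and 592 (12.5%). Between the sexes, 100 genes were higher and 203 lower than PB in both, and 114 were higher and 274 lower than PCN in both. Some of the share of lower calls depends on the scaling: 41.0% of the probe set calls against PB were higher as given, and 52.0% after division by the 75th percentile, and against PCN 41.2% and 51.7%.

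Gstp1 had the largest difference from both agents among the genes that passed as higher in females. Its effect was 4.86 for D3T, against 0.09 for PB and -0.27 for PCN in females, and the differences of effects were 4.78 ± 0.30 and 5.13 ± 0.30, with adjusted p = 5.03e-09 and 7.50e-09. With male groups the differences were 4.98 ± 0.33 and 4.92 ± 0.33. Gsta3 rose with all 3 agents, by 5.17 with D3T, 2.12 with PB and 2.65 with PCN, and the differences of 3.05 ± 0.35 and 2.52 ± 0.35 passed, as did those against males (1.38 ± 0.34 and 1.97 ± 0.34). The baselines of the 2 experiments differed. The mean log2 level of Gsta3 was 10.25 with D3T, 10.45 with PB and 10.99 with PCN, against 5.08 on the control diet and 8.33 in vehicle females. The level reached with D3T was not above that with PB or PCN. On its other 2 probe sets the difference from PCN in females did not pass (adjusted p = 0.480 and 0.325), and 1 of the 2 passed against PB. Gpx2 differed by 2.39 ± 0.71 from PB (adjusted p = 0.0389) and by 2.46 ± 0.71 from PCN (adjusted p = 0.0285) in females.

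Other antioxidant genes differed from PB or PCN in fewer of the comparisons or in none. Nqo1 moved by 2.59 with D3T, 1.14 with PB and 1.56 with PCN. Its difference passed against PB in females (1.45 ± 0.44, adjusted p = 0.042), and did not pass against PCN in females (1.03 ± 0.44, adjusted p = 0.149) or against PB (0.82 ± 0.36, adjusted p = 0.175) or PCN (1.02 ± 0.36, adjusted p = 0.0775) in males. Akr7a3 differed from PB by 2.17 ± 0.50 (adjusted p = 0.00805) and from PCN by 0.78 ± 0.50 (adjusted p = 0.375) in females, and passed against both in males (1.58 ± 0.37 and 1.49 ± 0.37). Ephx1 passed in no comparison, with differences of -0.24 ± 0.25 from PB (adjusted p = 0.642) and -0.31 ± 0.25 from PCN (adjusted p = 0.495) in females, and 0.09 ± 0.16 (adjusted p = 0.83) and 0.46 ± 0.16 (adjusted p = 0.0713) in males. Gsr passed in none either, at 0.28 ± 0.56 (adjusted p = 0.886) and -0.93 ± 0.56 (adjusted p = 0.337) in females and with adjusted p = 0.946 and 0.567 in males.

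Sterol synthesis differed in each comparison. Against PB in females 10 of 15 cholesterol genes passed as lower and none as higher, with a median difference of effects of -1.61, and against PCN 7 of 15 passed as lower and none as higher, with a median of -0.89. Over all 4736 genes, 294 were lower against PB and 384 against PCN in females. With male groups the counts of cholesterol genes were 8 and 5 lower, and none was higher. There 10.5% and 12.5% of all genes passed in either direction. Sqle differed by -5.32 ± 0.85 from PB and -4.22 ± 0.85 from PCN in females, and by -3.82 ± 0.84 and -3.41 ± 0.84 in males. Sqle itself moved by -3.04 with D3T, 2.28 with PB and 1.18 with PCN in females. Idi1 differed by -4.27 ± 0.59 and -3.28 ± 0.59, Insig1 by -3.08 ± 0.51 and -2.05 ± 0.51 and Msmo1 by -3.54 ± 0.55 and -2.48 ± 0.55 from PB and PCN, and each passed against both agents in both sexes.

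Among the P450 genes, Cyp2b2 moved by 0.47 with D3T, 3.23 with PB and 2.41 with PCN in females. Its difference passed against both agents in both sexes, at -2.76 ± 0.14 and -1.94 ± 0.14 in females and -2.53 ± 0.23 and -1.29 ± 0.23 in males. For Cyp3a2 the differences were smaller against males than against females, a gap that was not tested. In females its difference was -4.27 ± 0.68 from PB and -3.77 ± 0.68 from PCN, where PB moved it by 2.68 and PCN by 2.18. In males, whose vehicle rats already held it at a high level, the differences were -1.68 ± 0.17 and -1.68 ± 0.17, and they passed. In the fit with females the mean log2 level of Cyp3a2 was 11.065 on the control diet, against 4.23 in vehicle females, near the floor of 4. It was 9.48 with D3T, 6.91 with PB and 6.415 with PCN, so the level with D3T stayed above that with PB or PCN. Cyp3a23-3a1, the PCN-inducible form, moved by -0.44 with D3T, 1.24 with PB and 1.34 with PCN in females, with differences of -1.68 ± 0.24 and -1.79 ± 0.24 (adjusted p = 0.000161 and 5.17e-05). Sult2a1 differed from PB by -2.13 ± 0.22 and from PCN by -2.38 ± 0.22 in females, and missed the threshold against PB in males (-1.17 ± 0.37, adjusted p = 0.0521). The Cth effect was 1.41 with D3T, and 0.27 with PB and -1.64 with PCN in females. Its difference passed against PCN (3.04 ± 0.49, adjusted p = 0.000382) but not against PB (1.14 ± 0.49, adjusted p = 0.164). Igf1 differed by -1.09 ± 0.17 and -0.78 ± 0.17 in females, but not past the threshold in males (-0.69 ± 0.26 and -0.28 ± 0.26, adjusted p = 0.107 and 0.587).

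**Figure D5:**
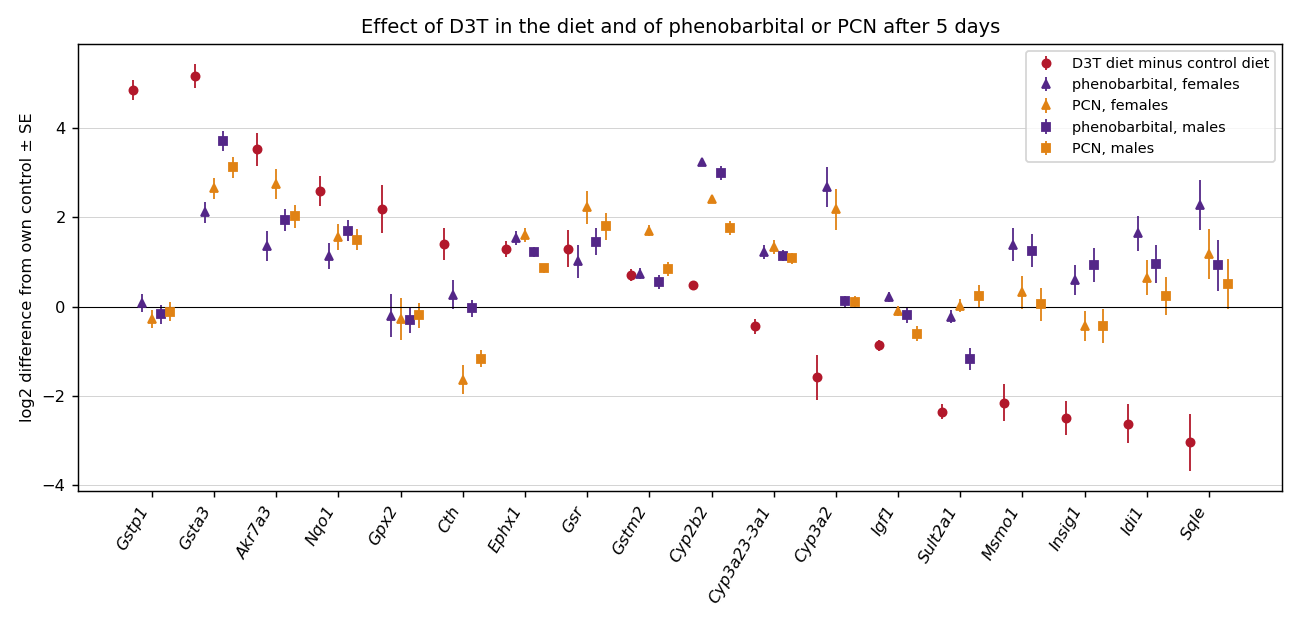
Effect ± SE on the log2 scale of D3T diet minus control diet (4 and 4 rats) and of PB and PCN minus vehicle (5 rats each; females as triangles, males as squares) for 18 genes. Gstp1 lies at 4.86 with D3T, against 0.09 with PB and -0.27 with PCN in females, and Sqle is the gene drawn lowest with D3T.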

How the data were processed

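The deposited values are probe set intensities of 1-colour Affymetrix rat arrays, as the authors summarised them before deposit; the summarisation method and its version are not given in the sources used, and values at or below 0 fill 27.9% to 32.6% of each of the 8 arrays. Groups were taken from sample titles. Of 8799 probe sets, 59 controls were left out and 8740 tested. Intensities of the 8 arrays were quantile normalised, negative values were set to 0, 16 was added and log2 taken. Diets were compared with limma 3.58.1 in R 4.3.3 (group means, eBayes) and Benjamini-Hochberg adjustment over all 8740 probe sets. PB and PCN were compared with D3T in 1 such fit of 23 arrays. Each gene took the values of the brightest probe set that GEO's platform annotation gives its symbol alone; 7018 probe sets had 1 symbol, 308 several and 1473 none. Of the named genes 54 had several probe sets, and 2, Gclm and Sparc, had 1 called the opposite way.

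By the rule for names, any listed gene could be named, those with the largest passed changes first, and outside the lists the 15 largest rises and falls among passed genes whose diets did not overlap, and the 10 highest and lowest of each difference of effects. Not every gene the rule allowed is named: outside the lists, those among the 15 largest rises and 15 largest falls of all genes are given, and from the differences of effects mainly listed genes. The members, lists and tests were chosen with earlier results of these data known. Alternatives covered the scaling, the added constant, filters on low values, a replicate block and leaving out each rat; a minimum intensity of 100, deposited values relative to their median shift, and the male groups were chosen after seeing the data. Replicate numbers did not pair the rats. The labels do not say whether rats of a diet shared a cage or a hybridisation day, so p-values measure the spread between these 4 and 4 samples, and that number limits the precision. Promoter sequences are RefSeq's (GRCr8).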

Additional observations from a re-analysis of the deposited data

Results flagged for a closer look

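In 16 of 220 sets of 4 rats (110 named genes in both diets), 1 rat stood apart from the other 3 by Dixon's test. Chance gives about 1 in 20 for continuous values. That rate does not hold where 3 rats were set to the same floor, so the count cannot be read against it. Values are log2(normalised intensity + 16). Among D3T rats, rat 4 was high for Gstm1 (12.2228), rat 2 for Slc40a1 (7.4851) and Ttc3 (4.7409), rat 1 for Ptpn12 (4.6823), and rat 3 for Sqle (4.676), Cyp17a1 (6.7013), Hadh (6.2748) and Dhrs7b (4.6593). For Sqle, Dhrs7b, Ttc3 and Ptpn12 the other 3 D3T rats were listed at 0, so the rat apart was the 1 with any signal. Among control rats, rat 4 was low for Gstt2 (9.4296) and Cyp2c11 (11.4184) and high for Gpx2 (5.1863), Tulp1 (5.7444) and Dtd1 (4.7266), the last 2 with the other 3 listed at 0. Control rat 2 was high for Aldh1a1 (10.4407) and Slc40a1 (8.4287), and control rat 1 was low for Apcs (11.2952).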

How the results depend on the processing

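Without any scaling, the deposited values gave 4470 probe sets past the threshold, 62 of them higher, with a median shift of -0.95 over all probe sets, and 77.5% of the 689 listed genes, against 1097 probe sets and 26.4% as reported. The joint fit gave 1722 probe sets for the diet effect. Leaving out 1 rat gave 696 to 984 probe sets and 17.4% to 22.1% of listed genes, the lowest share without control rat 2. Same-numbered rats did not deviate together (correlations of 0.27, -0.08, -0.10 and -0.20), and with a replicate block 358 probe sets and 9.0% of listed genes passed. After division by the 75th percentile 63.1% of the listed genes called were higher, and after division by the mean 21.8%, against 42.9% as reported. In the comparisons with PB and PCN, leaving out 1 rat gave 727 to 996 and 901 to 1134 probe sets, against 875 and 1068. Relative to the median shift of the deposited values, Gclm (-0.4554), Me1 (-0.2473), Cyp2c11 (-0.1895) and Cyp2b2 (-0.572) turned. Alb turned to 1.6039 (75th percentile), 1.201 (mean), 0.6712 (cyclic loess) and 0.568 (median shift), and Ttr to 1.2826, 0.8798, 0.4344 and 0.2476. Gstm1's difference from PCN turned to 0.0456 (75th percentile) and 0.2898 (male groups). The cause of these turns was not tested. Of 2169 values of named genes under alternatives 1863 kept their direction and side of the threshold, 282 missed it, 12 newly passed and 12 turned; of 868 in the joint fit these were 824, 38, 4 and 2. On each array at least 27.9% of values lay at or below 0, so low genes carry little measured signal.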
